A study of Mus musculus with 12 samples.

Results

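The genes described here are 40 mouse genes that license replication origins, unwind and copy DNA, make its nucleotides and pack the new strands into chromatin. They were taken by symbol, as all probe sets with 1 gene symbol, from liver arrays of 2 Affymetrix designs, 430A and 430 2.0. A probe set is the group of short probes that together read 1 transcript. On 430A 38 of the 40 genes were read, by 68 probe sets among 12393 genes in all, and on 430 2.0 39 genes by 85 probe sets among 18193. Gins2, a subunit of the replicative helicase complex, had such a probe set only on 430 2.0, and Chaf1a, the large subunit of a histone chaperone, on neither.

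The livers came from mice 10 weeks of age. Tyrosine is broken down in steps of which the enzyme Fah makes the last, and NTBC, a drug acting further up the route, protects Fah knockout mice from toxic tyrosine products. p21, the product of Cdkn1a, inhibits cyclin-dependent kinases and binds the replication clamp. On 430A the normal group held 4 livers of different kinds: a wildtype mouse on water (normal 1), a wildtype mouse on NTBC (normal 2), a Fah knockout on NTBC (normal 3) and a knockout of both Fah and p21 on NTBC (normal 4). Fah off names the 3 Fah knockout livers and Fah p21 off the 2 double knockout livers, each after 14 days on water in place of NTBC. On 430 2.0 there was 1 normal liver, a double knockout on NTBC that also bears the number 4, and 2 double knockout livers off NTBC, numbers 3 and 4. Every Fah p21 off liver thus lacked both genes, and the normal group on 430A mixed 3 genotypes with 1 or 2 livers each. The titles call the arrays biological replicates, but whether normal 4 on both designs is 1 mouse, and which sex and strain the mice were, is not stated in any source used here.

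Before S phase, the origin recognition complex, Cdc6 and Cdt1 load the ring-shaped MCM helicase onto DNA, and Cdc45 and the GINS complex then switch it on. Primase and DNA polymerase alpha start each strand, the polymerases delta and epsilon extend it with the help of the sliding clamp PCNA, and ribonucleotide reductase supplies the deoxynucleotides. Most hepatocytes of an adult liver are quiescent and make little of this machinery, and many of its genes are transcribed at the entry into S phase by E2F factors, which the retinoblastoma proteins hold back while cyclin-dependent kinases are inhibited.

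Promoter sequence was available from RefSeq (assembly GRCm38.p6, 250 bases before to 50 after each start) for 34 of the 40 genes, in 40 windows. An E2F-type motif, any of TTTCCCGC, TTTCGCGC, TTTGCCGC and TTTGGCGC on either strand, was found in 13 of these 40 windows (32.5%), against 2.26% of 32851 promoter windows in all and 3.38% of the 12566 windows of genes on 430A. The motif CCAAT, searched on both strands as a comparison, was in 57.5% of the members' windows and in 37.4% of all windows. Shown here to let the matches be read are the windows of Mcm3 and Mcm7, the MCM genes with a match among those of smallest p in the double knockout. The windows of Mcm6 and Cdc6 were added after their values were seen. Mcm6 had the largest fitted rise, and Cdc6 was the only member to pass between the groups off NTBC at an adjusted p under 0.05. Capitals mark the E2F-type matches, and each sequence runs 5′ to 3′ on the gene's strand. In Mcm6, 2 of the 3 matches overlap.
Mcm3 (chr1:20820263-20820562, minus strand): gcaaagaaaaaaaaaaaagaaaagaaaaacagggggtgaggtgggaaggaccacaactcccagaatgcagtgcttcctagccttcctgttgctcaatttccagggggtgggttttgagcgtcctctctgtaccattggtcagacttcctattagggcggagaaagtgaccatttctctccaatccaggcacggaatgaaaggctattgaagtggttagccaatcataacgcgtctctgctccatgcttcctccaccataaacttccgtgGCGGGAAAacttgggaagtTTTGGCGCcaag
Mcm7 (chr5:138171834-138172133, minus strand): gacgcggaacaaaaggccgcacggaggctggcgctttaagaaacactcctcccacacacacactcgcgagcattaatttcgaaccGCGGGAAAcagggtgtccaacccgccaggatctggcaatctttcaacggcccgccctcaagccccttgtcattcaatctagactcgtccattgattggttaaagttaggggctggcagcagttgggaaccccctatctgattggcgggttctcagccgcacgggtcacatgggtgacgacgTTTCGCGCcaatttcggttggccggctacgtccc
Mcm6 (chr1:128359656-128359955, minus strand): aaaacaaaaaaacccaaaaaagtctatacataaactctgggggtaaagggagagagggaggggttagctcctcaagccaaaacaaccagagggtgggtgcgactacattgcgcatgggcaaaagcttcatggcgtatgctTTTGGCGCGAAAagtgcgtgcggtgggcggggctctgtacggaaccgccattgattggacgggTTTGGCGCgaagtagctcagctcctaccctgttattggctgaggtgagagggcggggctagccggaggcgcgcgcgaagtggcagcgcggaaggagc
Cdc6 (chr11:98907901-98908200, plus strand): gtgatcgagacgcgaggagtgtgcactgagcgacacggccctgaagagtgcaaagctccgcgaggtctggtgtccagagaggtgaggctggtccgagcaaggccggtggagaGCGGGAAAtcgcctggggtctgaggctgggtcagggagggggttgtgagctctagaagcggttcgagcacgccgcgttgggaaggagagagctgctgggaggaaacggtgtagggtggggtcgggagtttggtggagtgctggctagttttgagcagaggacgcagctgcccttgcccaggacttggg
The Mcm3 matches begin 19 and 38 bases after the start, those of Mcm7 165 bases before and 16 after it, the first of Mcm6 110 bases before it and that of Cdc6 138 bases before it. A match of letters is a description and not a shown binding site.

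The values are intensity signals of the authors, scaled by them to 1 level per array, with a mean between 349.5 and 350.1 on 430A after the extremes are trimmed. Each gene was read by its brightest probe set over the 430A arrays, differences are on the scale of log2(signal + 9.8) on 430A and log2(signal + 3.8) on 430 2.0, which understates the changes of dim genes, and a gene passed at a Benjamini-Hochberg adjusted p under 0.05 in limma over all probe sets of the design. As a check of the labels, the Fah probe set 1417220_at read 6868 and 7120 in the wildtype livers and 100.8 to 233.0 in every Fah-deficient liver on 430A. The Cdkn1a probe set 1421679_a_at read 14.7 to 51.4 on the normal arrays, 989.5 to 1862 in Fah off and 9.5 and 8.2 in Fah p21 off. It read 14.7 in normal 4 and 17.5 in the wildtype normal 2, so it cannot check the p21 genotype of normal 4. A second one, 1424638_at, read 75.2 to 257.7 on the normal arrays, 2814 to 3936 in Fah off, and 1828 and 2060 in Fah p21 off. Hepatocyte genes were bright in every liver, with Alb at 17061 to 18855 on the normal arrays of 430A and 11573 to 13806 off NTBC there, and at 21561 against 20863 and 21076 on 430 2.0. RNA came from whole tissue, so fewer cells of a type and less RNA per cell cannot be told apart.

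After NTBC withdrawal the Fah knockout liver moved few of these genes, and the double knockout liver moved most of them upward. In Fah off against normal, 6 of 38 members rose (Mcm2, Mcm3, Mcm6, Pcna, Rpa1 and Rpa2), where 14.4% of all genes rose, and 4 fell (Mcm10, Prim1, Rfc5 and Tk1), where 11.6% of all genes fell, so both shares, 15.8% and 10.5%, lay near the background. In Fah p21 off against normal, 22 of 38 members (57.9%) rose, against 12.8% of all genes, and 1, Mcm10, fell, against 8.04%. With every array scaled to a common median, 18 members rose and 1 fell there, while the probe sets called in all turned from 2746 higher and 1529 lower to 1656 and 2293. The median change of the members was 0.14 in Fah off and 0.97 in Fah p21 off, with -0.01 and 0.09 over all genes. All 6 genes that rose in Fah off also passed upward in Fah p21 off, in a comparison with the same normal arrays.

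The direct comparison of the 2 groups off NTBC passed the threshold for 1 member. Of Fah p21 off against Fah off, 4 of 12393 genes (0.0323%) were higher and 0.0% lower by limma, and Cdc6 was the 1 member among the 4. Of all probe sets 7 were higher and 1 lower, which became 6 and 4 with quantile normalization and 9 and 8 with a common median. At an unadjusted p under 0.05, 27 of 38 members (71.1%) were higher and 0 lower, against 5.5% higher and 2.74% lower of all genes, the difference was positive in 36 members, and its median was 0.80 (0.08 over all genes). Mcm5 (adjusted p = 0.0514), Rrm2 (0.0524), Mcm7 (0.0575) and Mcm3 (0.0615) lay just past the threshold.

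**Figure D1:**
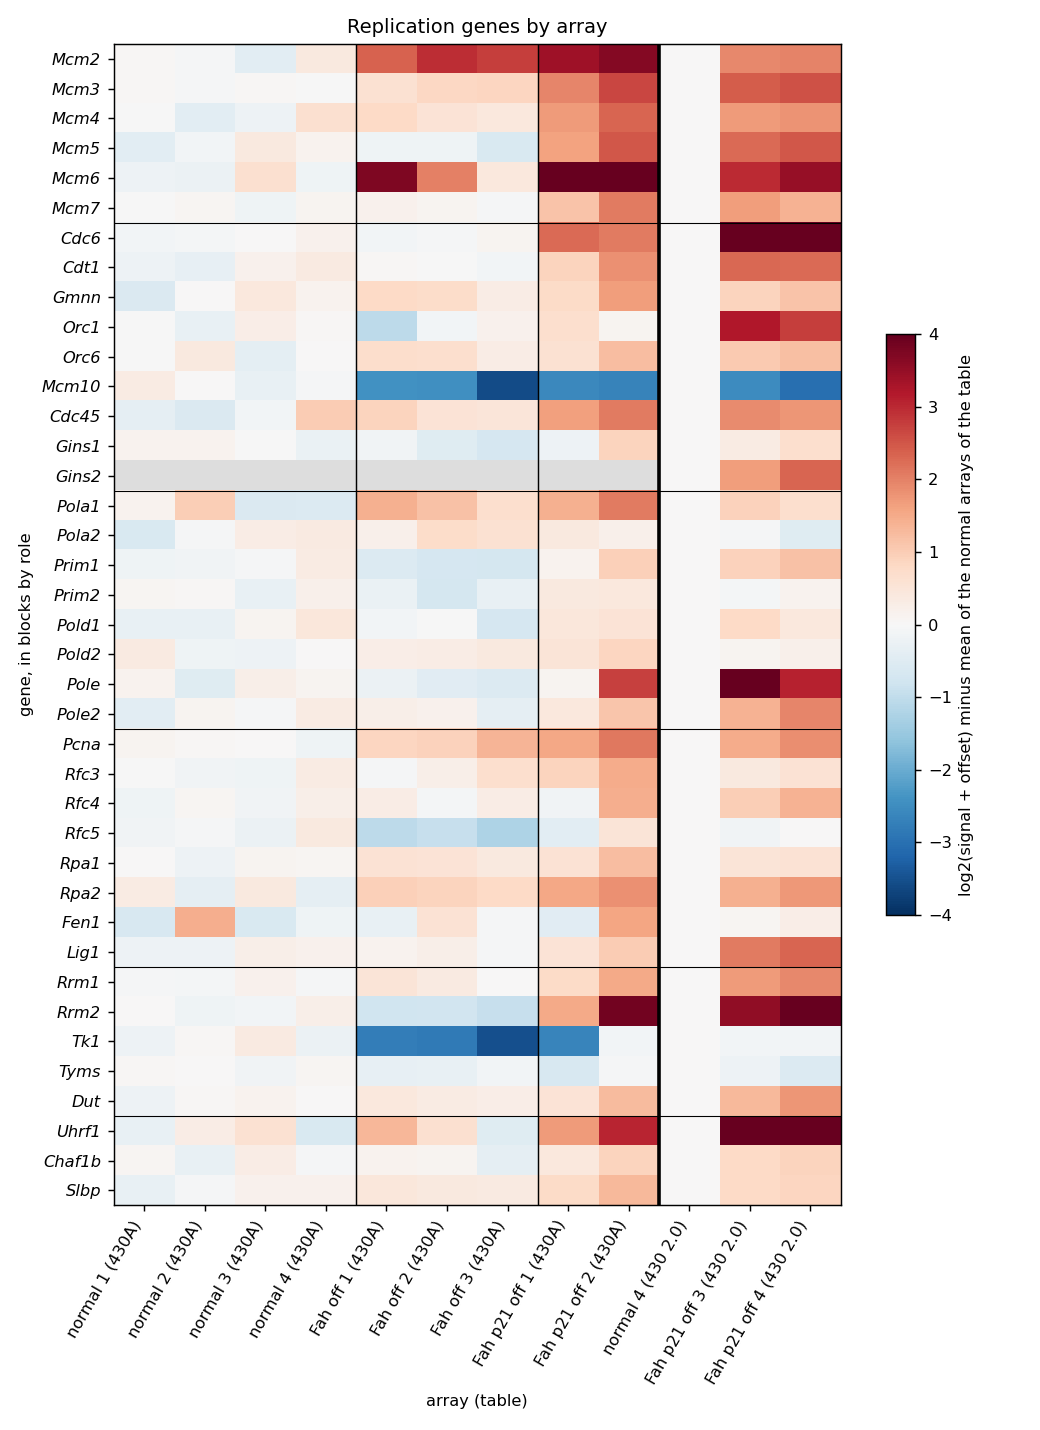
Log2(signal + offset) of each member on each array minus the mean of the normal arrays of the same design; rows are genes in blocks by role, columns are arrays, the thick line parts 430A from 430 2.0, gray marks no probe set, and colours saturate at 4 and -4. The Fah p21 off columns are red for most genes, with Mcm10 blue on every array off NTBC and Tk1 blue in Fah off and Fah p21 off 1.

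Both double knockout arrays of 430A differed from each other in the size of this rise. Set against the normal mean, the median over the 38 members was 0.64 on Fah p21 off 1 and 1.46 on Fah p21 off 2, between -0.05 and 0.10 on the normal arrays, and 0.07 to 0.24 on the Fah off arrays. Fah p21 off 2 read above Fah p21 off 1 in 34 of 38 members, with a median difference of 0.66, where 42.9% of all genes read higher and the median was -0.06. On 430 2.0 the 2 double knockout arrays lay closer, at 1.30 and 1.40. Leaving out either Fah p21 off array of 430A left 1 array in that group. The calls against normal over all probe sets then also became far fewer, so a loss of calls is not particular to these genes. Without Fah p21 off 2, 12 of the 23 calls against normal were lost and 1 was gained (Tk1, lower), while Mcm2 to Mcm7, Cdc6, Mcm10, Pcna, Rpa2 and Rrm2 still passed. Without Fah p21 off 1, 9 members passed against Fah off, all higher: Mcm3, Mcm5, Mcm7, Cdc6, Cdt1, Prim1, Pole, Rrm2 and Tk1. In that fit 0.614% of all probe sets were higher and 0.053% lower. With normal 4, the double knockout on NTBC, as the only control, 7 members passed in Fah p21 off (Mcm2, Mcm3, Cdc6, Pola1, Pcna and Rpa2 higher, Mcm10 lower), beside 4.02% of all probe sets higher and 2.25% lower. With normal 3 alone 2 passed in Fah off (Mcm2 higher, Mcm10 lower), beside 6.05% and 3.83%.

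**Figure D2:**
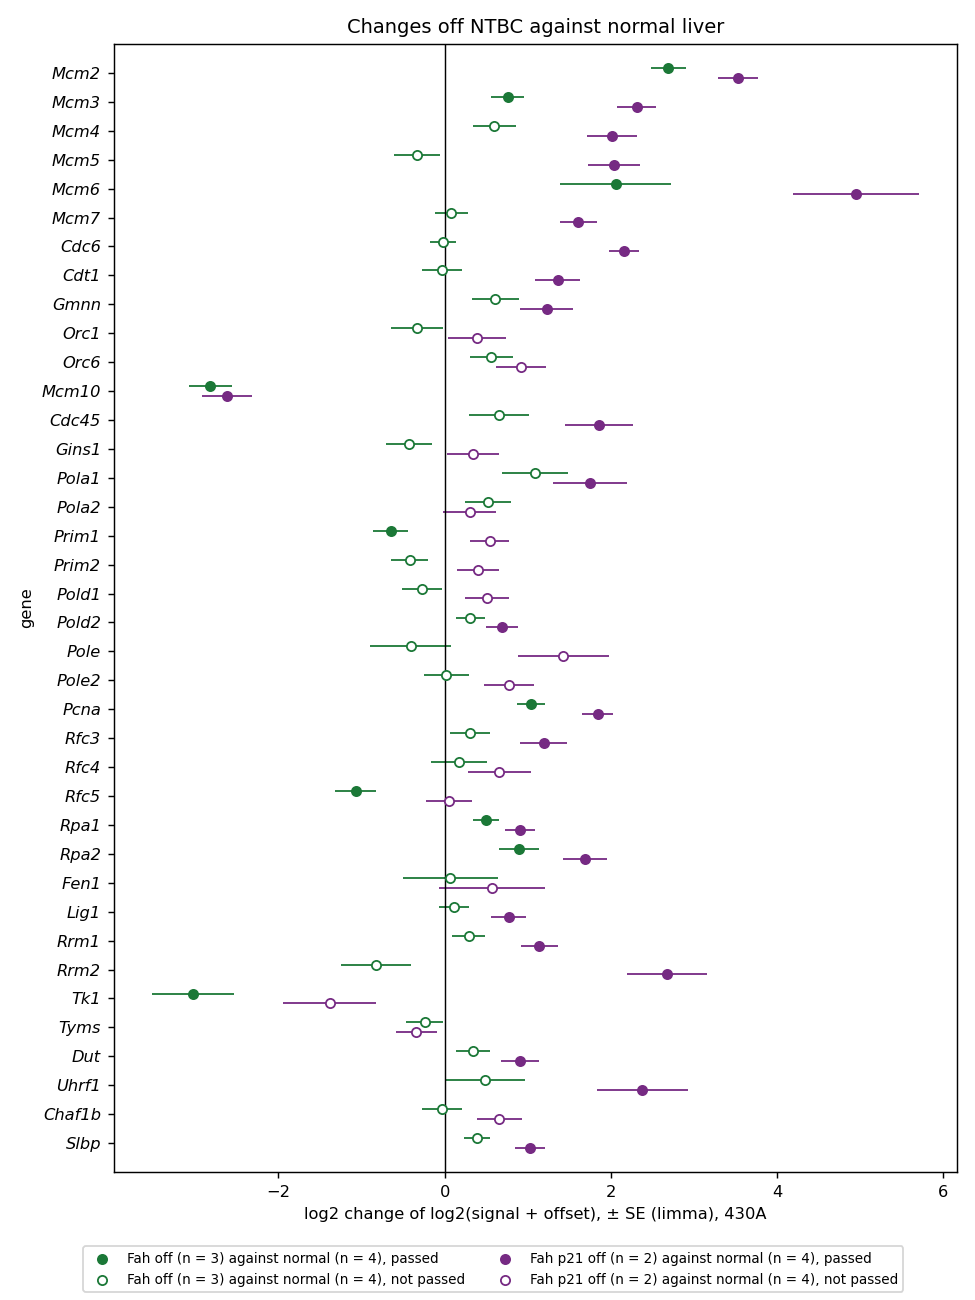
Log2 change of each member on 430A with its standard error from limma, for Fah off (green, n = 3) and Fah p21 off (purple, n = 2) against the same 4 normal arrays; filled points passed at an adjusted p under 0.05. Of the 38 genes 22 purple points are filled on the right, and 6 green ones.

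The MCM helicase genes, Mcm2 to Mcm7, encode the 6 subunits of the ring that opens the double helix. All 6 rose in Fah p21 off (median change 2.18) and 3 of them in Fah off (median 0.68). Mcm2 read 70.7 to 131.2 on the normal arrays, 539.6, 810.8 and 717.6 on the Fah off arrays, and 1099 and 1363 on the Fah p21 off arrays. Each Fah off signal was above each normal one, and each Fah p21 off signal above each Fah off one. It rose by 2.69 ± 0.21 (6.46-fold, adjusted p = 1.13e-05) in Fah off and by 3.53 ± 0.24 (11.6-fold, adjusted p = 1.16e-05) in Fah p21 off, and a second probe set, 1448777_at, rose by 1.77 ± 0.24 and 2.53 ± 0.28. Mcm3 read 71.5, 66.7, 71.6 and 68.5 on the normal arrays, 110.5, 130.2 and 133.5 on the Fah off arrays, and 298.9 and 493.2 on the Fah p21 off arrays. By this probe set, 1420028_s_at, the 4 normal signals were nearly equal, and the groups followed each other without overlap. The other Mcm3 probe sets on 430A did not pass in Fah off. They changed there by 0.14 ± 0.28 (1420029_at), 0.64 ± 0.29 (1426652_at), -0.17 ± 0.30 (1426653_at) and 0.58 ± 0.36 (1449705_x_at). In Fah p21 off all of these but 1420029_at rose. Mcm3 rose by 0.76 ± 0.20 (1.69-fold, adjusted p = 0.0207) in Fah off, a call that was lost without Fah off 2 (0.73, adjusted p = 0.0744) or Fah off 3 (0.71, adjusted p = 0.0638), and by 2.31 ± 0.23 (4.97-fold, adjusted p = 0.000108) in Fah p21 off.

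Mcm6 had the largest fitted rise, from a signal close to the floor. Mcm6 read 6.2, 5.9, 19.1 and 6.5 on the normal arrays, 238.4, 65.6 and 14.9 on the Fah off arrays, and 324.9 and 976.9 on the Fah p21 off arrays. The Fah off livers spread widely and overlapped the normal ones, while both Fah p21 off livers lay above every other array. Mcm6 rose by 2.06 ± 0.67 (4.17-fold, adjusted p = 0.0484) in Fah off, close to the threshold. Leaving out any 1 of the 9 arrays except Fah off 3 ended that call, at adjusted p-values of 0.0502 to 0.169, with the smallest change, 1.22, without Fah off 1. In Fah p21 off it rose by 4.95 ± 0.76 (31-fold, adjusted p = 0.00138). A second Mcm6 probe set, 1438852_x_at, did not pass in Fah off (0.83 ± 0.51, adjusted p = 0.288). It rose in Fah p21 off (3.17 ± 0.58, adjusted p = 0.00371).

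The other 3 subunits passed in Fah p21 off and not in Fah off. Mcm7 read 345.5, 369.9, 311.0 and 377.0 on the normal arrays, 397.7, 380.5 and 336.2 on the Fah off arrays, and 788.2 and 1502 on the Fah p21 off arrays. The Fah off signals lay within or next to the normal range, and both double knockout signals were at least 788. Mcm7 rose by 1.61 ± 0.22 (3.05-fold, adjusted p = 0.000732) in Fah p21 off and did not pass in Fah off (0.08 ± 0.20, adjusted p = 0.817). Of its 4 probe sets on 430A, 1416030_a_at fell in Fah off (-0.67 ± 0.17, limma adjusted p = 0.016) from 348.7 to 450.5 on the normal arrays to 223.4 to 267.8, and the other 3 did not pass there. Mcm4 read 113.8, 84.5, 100.3 and 186.7 on the normal arrays, 209.7, 176.1 and 159.8 on the Fah off arrays, and 400.3 and 618.2 on the Fah p21 off arrays. Normal 4 read inside the Fah off range, and without it Mcm4 passed in Fah off as well (0.81, adjusted p = 0.0228). In Fah p21 off Mcm4 rose by 2.01 ± 0.30 (4.03-fold, adjusted p = 0.00108). Mcm5 read 63.3, 79.8, 117.8 and 97.6 on the normal arrays, 76.0, 76.2 and 53.6 on the Fah off arrays, and 285.2 and 531.9 on the Fah p21 off arrays. The Fah off signals overlapped the normal ones, and Mcm5 rose in Fah p21 off by 2.04 ± 0.31 (4.11-fold, adjusted p = 0.00136).

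On 430 2.0, where 11 of 39 members rose and 1 fell against backgrounds of 2.26% and 0.989%, 5 of the 6 MCM genes passed. Scaled to a common median, 18 members rose and 1 fell, and the probe sets called in all went from 715 higher and 287 lower to 1380 and 937. Mcm6 read 162.8 in the normal liver and 1308 and 1843 in the double knockout livers (3.22 ± 0.28, adjusted p = 0.022), and Mcm7 read 822.9 against 2643 and 2179 without passing (1.54 ± 0.22, adjusted p = 0.0546), while its probe set 1416030_a_at passed upward (1.46 ± 0.20, adjusted p = 0.0485). The normal liver of number 4 read Mcm6 at 6.5 on 430A, so levels are not set against each other between designs. This fit has 1 normal array and 1 residual degree of freedom, and without limma's intensity trend it called 0 members. All 12 members called there passed in the same direction on 430A.

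Among the genes that load and switch on the helicase, 4 of 8 rose in Fah p21 off, 1 fell there, and none rose in Fah off, where 1 fell. Cdc6, the ATPase that loads the MCM ring, was the member that passed between the groups off NTBC. Cdc6 read 2.5, 2.6, 3.4 and 5.0 on the normal arrays, 2.4, 2.8 and 4.5 on the Fah off arrays, and 53.2 and 45.2 on the Fah p21 off arrays. It was at the bottom of the scale in normal and Fah off livers, and both double knockout signals lay far above all of these. Even so, both were below the 40th percentile of the signals on their arrays. Cdc6 rose by 2.16 ± 0.18 (4.48-fold, adjusted p = 3.55e-05) against normal and by 2.18 ± 0.19 (4.53-fold, adjusted p = 0.00347) against Fah off. At such signals the fitted change depends on the offset: on the larger offset, the 25th percentile, it was 1.05 in both comparisons, with the call kept, and without an offset it was 3.92 against normal, which passed, and 3.98 against Fah off, where neither it nor any other member passed. On 430 2.0 Cdc6 read 5.9 in the normal liver and 161.6 and 188.8 in the double knockout livers.

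Cdt1, the partner of Cdc6 in loading, moved less. Cdt1 read 183.7, 169.1, 241.1 and 275.8 on the normal arrays, 218.3, 212.6 and 195.1 on the Fah off arrays, and 401.2 and 786.8 on the Fah p21 off arrays. The Fah off signals lay inside the normal range, and Fah p21 off 2 read well above Fah p21 off 1. Cdt1 rose by 1.36 ± 0.27 (2.56-fold, adjusted p = 0.00598) in Fah p21 off, a call lost without Fah p21 off 2 (0.88, adjusted p = 0.0819). Cdc45, which joins the MCM ring in the active helicase, had a normal group split by normal 4. Cdc45 read 29.6, 24.2, 37.5 and 93.0 on the normal arrays, 84.3, 64.2 and 61.5 on the Fah off arrays, and 147.1 and 204.7 on the Fah p21 off arrays. It rose by 1.86 ± 0.41 (3.63-fold, adjusted p = 0.00993) in Fah p21 off and not without Fah p21 off 2 (1.63, adjusted p = 0.0992), and it passed in Fah off without normal 4 (0.99, adjusted p = 0.018). Gmnn, whose product geminin blocks Cdt1 from licensing again, rose by 1.23 ± 0.32 (2.34-fold, adjusted p = 0.0213) in Fah p21 off, and not without Fah p21 off 2 (0.77, adjusted p = 0.239).

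Mcm10, a scaffold of the firing origin, went the other way by its brightest probe set, 1433408_a_at. That probe set had the highest mean normal signal of the members on 430A, 2183.5, with Rpa1 next at 936.4. Mcm10 read 2691, 2178, 1766 and 2099 on the normal arrays, 397.8, 384.0 and 170.1 on the Fah off arrays, and 351.5 and 332.8 on the Fah p21 off arrays. Every signal off NTBC was below every normal one, and the groups off NTBC overlapped. Mcm10 fell by 2.82 ± 0.26 (adjusted p = 3.81e-05) in Fah off and by 2.62 ± 0.30 (adjusted p = 0.000235) in Fah p21 off, and these calls held in all 22 alternatives tried for each. A second probe set, 1433407_at, read 100.5 to 129.1 on the normal arrays and fell in Fah off (-0.84 ± 0.25) but did not pass in Fah p21 off (-0.49 ± 0.29, adjusted p = 0.295). On 430 2.0 the probe set 1433408_a_at read 3990 against 699.3 and 495.4, while 1454244_at, found only on that design, read 25.5 against 47.3 and 51.0 and did not pass (0.85 ± 0.61).

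The origin recognition genes Orc1 and Orc6 and the GINS gene Gins1 passed in no comparison on 430A. Orc1 read 24.4 to 40.8 on the normal arrays, 10.5 to 37.6 in Fah off and 56.4 and 35.8 in Fah p21 off. Gins2 read 58.7 in the normal liver of 430 2.0 and 194.1 and 312.1 in the double knockout livers, and did not pass (2.00 ± 0.42, adjusted p = 0.111).

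**Figure D3:**
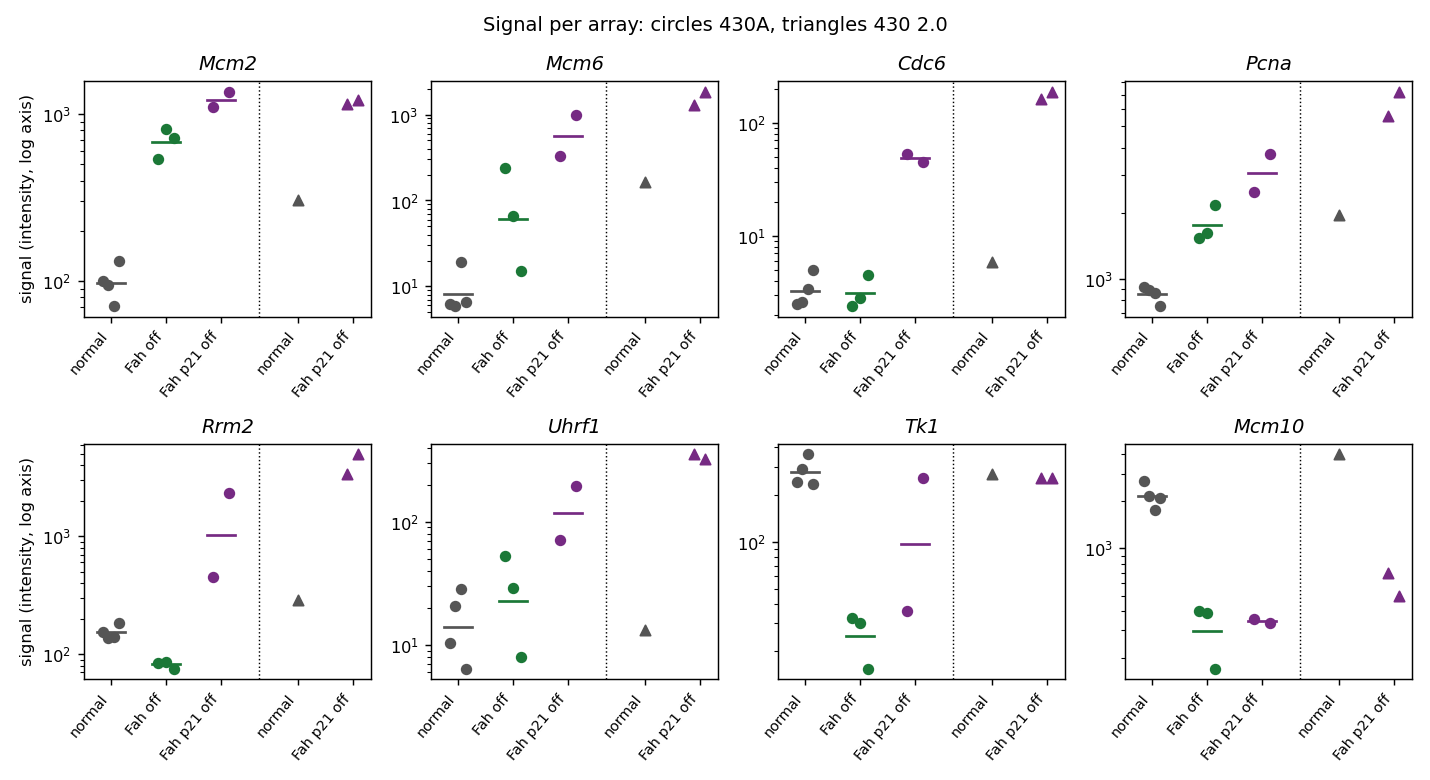
Signal of 8 members on every array, on a log axis, with circles for 430A, horizontal lines for the geometric mean of a group, and triangles for 430 2.0, which was scaled separately. Cdc6 is higher on the Fah p21 off arrays than on any other array of the same design, though dim on all of 430A. Mcm2 and Pcna rise in steps, Tk1 is low in Fah off and Fah p21 off 1, and Mcm10 is low on every array off NTBC.

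Of the 8 polymerase and primase genes, 2 rose in Fah p21 off (median change 0.62), and in Fah off none rose and 1 fell. Pola1 read 21.8, 47.3, 9.4 and 9.7 on the normal arrays, 67.0, 54.9 and 35.5 on the Fah off arrays, and 67.4 and 111.1 on the Fah p21 off arrays. Pola1 encodes the catalytic subunit of polymerase alpha, and its normal signals spread widely. It rose by 1.75 ± 0.45 (3.37-fold, adjusted p = 0.0211) in Fah p21 off; without Fah p21 off 1 it did not pass (2.08, adjusted p = 0.057), nor without Fah p21 off 2 (1.43, adjusted p = 0.176), and without normal 2 it passed in Fah off (1.42, adjusted p = 0.0135). Pold2 read 273.2, 186.0, 181.2 and 209.9 on the normal arrays, 254.9, 259.0 and 275.6 on the Fah off arrays, and 307.0 and 387.3 on the Fah p21 off arrays. Normal 1 overlapped the Fah off livers. Pold2, the second subunit of polymerase delta, rose by 0.69 ± 0.19 (1.61-fold, adjusted p = 0.0305) in Fah p21 off, and lost the call without normal 2 (0.64, adjusted p = 0.0716), normal 3 (0.62, adjusted p = 0.0613) or either Fah p21 off array (0.85, adjusted p = 0.0613 without 1; 0.53, adjusted p = 0.24 without 2).

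Prim1, the catalytic subunit of primase, fell in Fah off. Prim1 read 214.7, 215.9, 234.9 and 307.0 on the normal arrays, 160.1, 148.5 and 142.7 on the Fah off arrays, and 265.1 and 475.2 on the Fah p21 off arrays. All 3 Fah off signals were below all normal ones, and Fah p21 off 2 was above them. The fall was -0.65 ± 0.21 (adjusted p = 0.0489), and it lost its call without any 1 of the normal or Fah off arrays, at adjusted p-values from 0.0625 to 0.122. On 430 2.0 its brighter probe set did not pass (1.06 ± 0.23, adjusted p = 0.115) and its dimmer one, 1449061_a_at, rose (1.82 ± 0.25, adjusted p = 0.0489). Pole and Pole2 encode the first subunits of polymerase epsilon. Pole read 12.7, 4.7, 13.8 and 11.9 on the normal arrays, 7.3, 4.9 and 4.1 on the Fah off arrays, and 12.2 and 125.0 on the Fah p21 off arrays. Fah p21 off 2 alone stood apart, and Pole did not pass (1.43 ± 0.55, adjusted p = 0.105), while it passed without Fah p21 off 1 (2.74, adjusted p = 0.000973). Pole2 read 64.8, 97.5, 86.5 and 115.8 on the normal arrays, 107.6, 101.1 and 67.8 on the Fah off arrays, and 123.8 and 204.9 on the Fah p21 off arrays. Both double knockout signals were above all others, and Pole2 did not pass (0.77 ± 0.30, adjusted p = 0.108). The brightest probe sets of Pola2, Prim2 and Pold1 passed in no comparison on 430A, with changes of 0.30 to 0.51 in Fah p21 off. A dimmer Pold1 probe set, 1456055_x_at, read 8.8 to 12.0 on the normal arrays, up to 32.9 in Fah off and 31.0 and 72.5 in Fah p21 off, and rose there (1.47 ± 0.31, adjusted p = 0.00798).

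Of the genes for the clamp, its loader, single-strand binding and the joining of Okazaki fragments, 5 of 8 (62.5%) rose in Fah p21 off, beside 12.8% of all genes. In Fah off 3 rose (37.5%, beside 14.4% of all genes) and 1 fell (12.5%), a share near the 11.6% of all genes. Pcna encodes the sliding clamp to which p21 binds. Pcna read 917.5, 885.9, 860.7 and 751.0 on the normal arrays, 1542, 1619 and 2186 on the Fah off arrays, and 2509 and 3744 on the Fah p21 off arrays. The groups did not overlap, and Fah p21 off lay highest. Pcna rose by 1.04 ± 0.17 (2.06-fold, adjusted p = 0.00118) in Fah off and by 1.84 ± 0.19 (3.57-fold, adjusted p = 0.00013) in Fah p21 off. On 430 2.0 it read 1973 against 5561 and 7211 and did not pass (1.68 ± 0.26, adjusted p = 0.0606).

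Rpa1 and Rpa2 encode subunits of the complex that coats single-stranded DNA. Rpa2 read 86.2, 50.2, 90.6 and 50.1 on the normal arrays, 140.2, 133.3 and 123.6 on the Fah off arrays, and 216.0 and 260.1 on the Fah p21 off arrays. The normal livers fell into a higher and a lower pair, both below Fah off. Rpa2 rose by 0.89 ± 0.24 (1.85-fold, adjusted p = 0.022) in Fah off, a call lost without normal 2 (0.77, adjusted p = 0.0558), Fah off 1 (0.85, adjusted p = 0.0753) or Fah off 2 (0.88, adjusted p = 0.0689), and by 1.69 ± 0.27 (3.22-fold, adjusted p = 0.0019) in Fah p21 off. Rpa1 read 943.9, 803.5, 1003 and 995.7 on the normal arrays, 1386, 1360.4 and 1228 on the Fah off arrays, and 1390.3 and 2223 on the Fah p21 off arrays. Fah p21 off 1 read next to the Fah off livers. A dimmer Rpa1 probe set, 1423293_at, did not pass in Fah off (0.35 ± 0.17, adjusted p = 0.178). It rose in Fah p21 off (0.80 ± 0.19, adjusted p = 0.0164). Rpa1 rose by 0.50 ± 0.16 (1.41-fold, adjusted p = 0.0433) in Fah off, and this call was lost without any 1 of the normal or Fah off arrays, at adjusted p-values from 0.0566 to 0.127; it rose by 0.91 ± 0.18 (1.88-fold, adjusted p = 0.00566) in Fah p21 off and not without Fah p21 off 2 (0.57, adjusted p = 0.0667).

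The clamp loader genes did not move together. Rfc3 read 84.1, 75.5, 74.1 and 108.8 on the normal arrays, 82.2, 102.4 and 141.3 on the Fah off arrays, and 166.9 and 252.6 on the Fah p21 off arrays. Rfc3 rose by 1.19 ± 0.28 (2.28-fold, adjusted p = 0.0132) in Fah p21 off and not without Fah p21 off 2 (0.90, adjusted p = 0.151). Rfc5 read 176.6, 190.6, 164.9 and 260.7 on the normal arrays, 88.9, 98.0 and 77.3 on the Fah off arrays, and 143.3 and 285.4 on the Fah p21 off arrays. All Fah off signals of Rfc5 were below all normal ones, and 1 double knockout signal was below and 1 above the normal range. Rfc5 fell by 1.07 ± 0.25 (adjusted p = 0.0104) in Fah off and did not pass in Fah p21 off (0.05 ± 0.28, adjusted p = 0.932). Rfc4 passed in neither comparison and read 69.3 and 226.5 in Fah p21 off; without Fah p21 off 1 it passed (1.44, adjusted p = 0.019).

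Lig1, the ligase that seals Okazaki fragments, rose by 0.77 ± 0.21 (1.71-fold, adjusted p = 0.0262) in Fah p21 off, without the call when normal 1 (0.71, adjusted p = 0.0593), normal 2 (0.70, adjusted p = 0.0627) or Fah p21 off 2 (0.53, adjusted p = 0.25) was left out. Fen1, the flap nuclease that trims these fragments, gave different answers by probe set. Its brighter one, 1436454_x_at, read 449.4 in normal 2 against 99.6 to 139.2 in the other normal livers and did not pass (0.57 ± 0.64 in Fah p21 off). The dimmer 1421731_a_at read 57.7 to 70.6 on the normal arrays, 142.8 to 185.6 in Fah off and 258.6 and 432.0 in Fah p21 off, and passed upward in both (1.25 ± 0.21 and 2.26 ± 0.24).

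For deoxynucleotide synthesis, 3 of 5 genes rose in Fah p21 off and none in Fah off, where 1 fell. Rrm1 and Rrm2 encode the large and small subunits of ribonucleotide reductase, of which the small one is the S phase subunit. Rrm2 read 155.5, 135.8, 141.1 and 183.3 on the normal arrays, 84.2, 86.5 and 75.2 on the Fah off arrays, and 453.2 and 2327 on the Fah p21 off arrays. The Fah off signals were below the normal ones, and the double knockout livers, both above, differed strongly from each other. Rrm2 rose by 2.68 ± 0.48 (6.39-fold, adjusted p = 0.00328) against normal, and its difference from Fah off, 3.50 ± 0.51 (adjusted p = 0.0524), missed the threshold. Its difference of Fah off from normal did not pass (-0.83 ± 0.42, adjusted p = 0.196), and it passed without Fah p21 off 1 (adjusted p = 0.00665) or Fah p21 off 2 (adjusted p = 0.00928), with the change unaltered at -0.83. The other 2 probe sets of Rrm2 showed no such fall in Fah off (1416120_at, 0.19 ± 0.64; 1448226_at, 0.26 ± 0.56), and both rose in Fah p21 off (3.85 ± 0.73 and 4.07 ± 0.63). On 430 2.0 Rrm2 read 287.6 against 3400 and 4950 (3.82 ± 0.29, adjusted p = 0.0176).

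Rrm1 read 210.7, 209.9, 246.5 and 214.4 on the normal arrays, 319.7, 282.3 and 222.1 on the Fah off arrays, and 381.6 and 644.5 on the Fah p21 off arrays. Rrm1 rose by 1.14 ± 0.22 (2.2-fold, adjusted p = 0.00511) in Fah p21 off and not without Fah p21 off 2 (0.77, adjusted p = 0.0728). Dut removes dUTP before it can enter DNA. The dimmer Dut probe set, 1419269_at, did not pass in Fah off (-0.55 ± 0.27, adjusted p = 0.184) or Fah p21 off (-0.07 ± 0.31, adjusted p = 0.919). On 430 2.0 its change was -0.35 ± 0.44. Dut read 112.0, 135.6, 147.3 and 132.6 on the normal arrays, 177.8, 168.5 and 160.0 on the Fah off arrays, and 195.6 and 330.2 on the Fah p21 off arrays. By this brighter probe set, 1419270_a_at, Dut had groups that did not overlap. It rose by 0.91 ± 0.23 (1.87-fold, adjusted p = 0.018) in Fah p21 off and not without Fah p21 off 2 (0.54, adjusted p = 0.22).

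Tk1, the thymidine kinase of the salvage route, fell in Fah off. Tk1 read 242.1, 289.5, 360.8 and 233.6 on the normal arrays, 32.7, 30.4 and 15.4 on the Fah off arrays, and 36.2 and 254.7 on the Fah p21 off arrays. Fah p21 off 1 read like the Fah off livers and Fah p21 off 2 like the normal ones. Tk1 fell by 3.03 ± 0.49 (adjusted p = 0.00125) in Fah off and did not pass in Fah p21 off (-1.38 ± 0.56, adjusted p = 0.12), where it passed downward without Fah p21 off 2 (-2.64, adjusted p = 0.00315). On 430 2.0 the normal liver read 272.2 and the double knockout livers 254.0 and 254.8. Tyms, the thymidylate synthase, read 36.7 to 45.4 on the normal arrays and 23.4 and 40.6 in Fah p21 off and passed in no comparison; a probe set shared with a Tyms pseudogene was left out.

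In the group for chromatin, 2 of the 3 genes read on 430A rose in Fah p21 off (66.7%), beside 12.8% of all genes. They were Uhrf1, which brings the maintenance methyltransferase to new DNA, and Slbp, which binds histone messages. In Fah off none passed, beside 14.4% of all genes higher and 11.6% lower. Uhrf1 read 10.4, 20.6, 28.5 and 6.4 on the normal arrays, 52.3, 29.0 and 7.9 on the Fah off arrays, and 71.5 and 196.5 on the Fah p21 off arrays. The Fah off livers overlapped the normal ones, and both double knockout livers lay above them. Uhrf1 rose by 2.38 ± 0.55 (5.21-fold, adjusted p = 0.0123), and not without Fah p21 off 2 (1.71, adjusted p = 0.142). On 430 2.0 it read 13.1 against 351.9 and 321.7 (4.33 ± 0.37, adjusted p = 0.0206). Slbp read 265.4, 318.9, 367.7 and 367.1 on the normal arrays, 447.6, 431.6 and 419.0 on the Fah off arrays, and 560.6 and 816.8 on the Fah p21 off arrays. These groups did not overlap. Slbp rose by 1.03 ± 0.18 (2.04-fold, adjusted p = 0.00334), with an adjusted p of 0.052 without Fah p21 off 2 (0.76). Chaf1b encodes the middle subunit of the histone chaperone CAF-1. Chaf1b read 80.7, 60.4, 96.6 and 73.4 on the normal arrays, 86.3, 83.5 and 58.2 on the Fah off arrays, and 105.4 and 152.4 on the Fah p21 off arrays. Both double knockout signals were above all others, and Chaf1b did not pass (0.66 ± 0.27, adjusted p = 0.128).

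Signal height limits what could be seen. On all 4 normal arrays 11 of the 38 members read below their array's 40th percentile, which lay between 73.8 and 100.1. Cdc6, Mcm6, Pole and Uhrf1 were dim in this sense, and their fitted changes understate the ratios of their signals. Cdc6 read below the 40th percentile on all 9 arrays of 430A, the 2 Fah p21 off arrays included. Of the 20 genes with a promoter window that rose in Fah p21 off, 10 held an E2F-type match. Of the 12 that did not pass 3 did, and Mcm10 held none. Over all 9887 genes of 430A with a window, 4.07% held a match. Mcm4 and Gmnn rose and had no window, and whether the match goes with the rise was not tested. Mcm2 held no match in its window.

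Other genes of the same pathway were read from 4 lists without overlap with the members. Dbf4, Topbp1, Top2a, Rpa3, Rrm2b, Hells and Asf1b are named from them because of their values. The counts of the lists stand beside the 14.4% of all genes that rose and 11.6% that fell in Fah off, and the 12.8% and 8.04% in Fah p21 off. Of 13 other origin genes 5 rose in Fah p21 off (38.5%) and 2 in Fah off (15.4%, near the background). Dbf4, the activator of the origin kinase Cdc7, read 31.1 to 65.1 on the normal arrays, 68.4 to 109.9 in Fah off and 187.2 and 468.7 in Fah p21 off (2.55 ± 0.38, adjusted p = 0.00114). Topbp1, which helps to load Cdc45, rose there by 2.34 ± 0.36 (adjusted p = 0.00141). Orc4 and Orc5 rose in both groups off NTBC, Orc5 by 0.93 ± 0.14 in Fah off and 0.60 ± 0.15 in Fah p21 off.

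Of 13 other fork genes 6 rose in Fah p21 off (46.2%), and in Fah off 2 rose (15.4%) and 1 fell (7.69%), both near or below the background. Top2a, which untangles finished duplexes, read 27.1 to 69.9, 45.6 to 81.5, and 248.1 and 890.7 and rose in Fah p21 off (3.20 ± 0.47, adjusted p = 0.00111); its difference from Fah off was 2.75 ± 0.50 (adjusted p = 0.0985). Pold4 and Pole3, small polymerase subunits, rose in both groups off NTBC, Pold4 by 1.32 ± 0.19 in Fah off. Rpa3 fell in Fah off (-0.82 ± 0.26, adjusted p = 0.0428) and did not pass in Fah p21 off.

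Of 20 other genes for nucleotide synthesis, 8 rose and 4 fell in Fah off, and 5 rose and 2 fell in Fah p21 off, the last a share near the background. Ctps, the CTP synthase, read 123.1 to 174.1 on the normal arrays, 1049 to 1285 in Fah off and 800.9 and 923.8 in Fah p21 off, a rise of 2.92 ± 0.14 (adjusted p = 7.44e-07) and 2.50 ± 0.16. Rrm2b, the p53-induced small subunit of ribonucleotide reductase, rose by 1.15 ± 0.19 in Fah off (adjusted p = 0.00137) and 0.72 ± 0.21 in Fah p21 off (adjusted p = 0.0411). Paics, an enzyme of purine synthesis, fell in both, by 1.24 ± 0.16 and 0.78 ± 0.18 on the log2 scale. Of 8 other chromatin genes 3 rose in Fah off (37.5%) and 6 in Fah p21 off (75.0%), among them the histone chaperone genes Asf1a (1.35 ± 0.13 and 1.08 ± 0.15) and Rbbp7 (1.25 ± 0.17 and 1.12 ± 0.19) in both. Hells, a chromatin remodeller, rose by 2.54 ± 0.41 in Fah p21 off and Asf1b by 2.07 ± 0.27. Of these 54 genes 0 passed in Fah p21 off against Fah off by limma, where 18 were higher and 2 lower at an unadjusted p under 0.05, beside 5.5% and 2.74% of all genes.

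**Figure D4:**
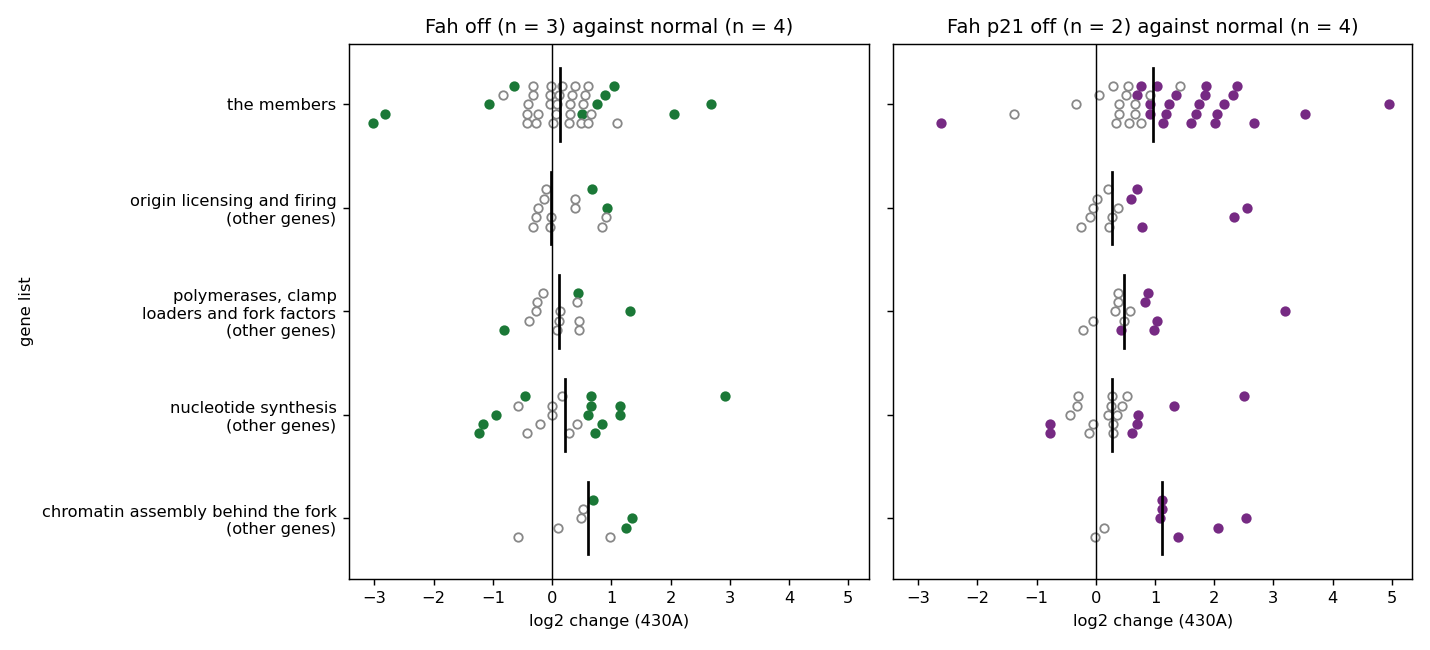
Log2 change on 430A of the 38 members and of 4 lists of other genes of the pathway, 1 point per gene, for Fah off (left) and Fah p21 off (right) against normal; filled points passed and black lines are medians. On the right the median is 0.97 for the members and 0.28 to 1.12 for the lists.

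Markers of cell types moved beside these genes, and their part in the results was not tested. Their counts against normal on 430A stand beside the 14.4% of all genes that rose and 11.6% that fell in Fah off. In Fah p21 off these shares were 12.8% and 8.04%. On 430A 6 of 7 hepatocyte markers fell in each group off NTBC, and their summed signal was 87209 to 91561 on the normal arrays, 58843 to 65841 in Fah off and 55067 to 58902 in Fah p21 off. The summed signal of 8 macrophage markers was 4588 to 8645, 6960 to 8943, and 9668 to 9937. Of these 8 markers 2, Cd68 and Lyz2, were higher in both groups, and the other 6 passed in neither. In Fah off Adgre1 (-0.11 ± 0.25) and Csf1r (-0.05 ± 0.17) were negative and the other 6 positive. In Fah p21 off all 8 were positive. On 430 2.0 Adgre1 (-0.24 ± 0.28) and Marco (-0.56 ± 0.44) were negative and the other 6 positive. The summed signal of 8 stellate and endothelial markers on 430A was 1830 to 2702, 1597 to 3870, and 4036 to 4478. Of these markers 1 was higher in Fah off (12.5%, below the share of all genes) and 3 in Fah p21 off (37.5%). Among 5 cholangiocyte markers, Epcam and Sox9 rose in both groups, and the sum was 81.2 to 158.2, 207.7 to 262.9, and 261.9 to 370.3. Krt19, Krt7 and Cftr passed in neither group. Their changes were negative in Fah off (-0.09 ± 0.34, -0.35 ± 0.33 and -0.36 ± 0.42). In Fah p21 off they were positive (0.57 ± 0.39, 0.22 ± 0.37 and 1.08 ± 0.48). The 5 erythroid markers summed to 1925 to 2817, 525.8 to 789.6, and 725.5 to 933.3, with Alas2 and Klf1 lower in both groups. Alas2, the brightest of them on the normal arrays, read 1150.5 to 2207.7 there and 16.1 to 183.3 off NTBC. Hba-a1 (0.35 ± 0.29 in Fah off and 0.67 ± 0.33 in Fah p21 off) did not pass. Epor (-0.28 ± 0.18 and -0.04 ± 0.21) and Ank1 (-0.13 ± 0.18 and 0.19 ± 0.20) did not pass either. On 430A none of 7 lymphocyte and 7 neutrophil markers passed, and their sums, 273.3 to 528.6 and 548.8 to 1165 on the normal arrays, covered or overlapped those off NTBC. In Fah p21 off against Fah off 0 of all 47 markers passed by limma, and 2 were higher at an unadjusted p under 0.05, a share near the 5.5% of all genes. These 2 were Cftr (1.43 ± 0.50, adjusted p = 0.527) and Ltf (0.67 ± 0.28, adjusted p = 0.607). The smallest p-values of the other lists were those of Col3a1 and Col1a2 (1.27 ± 0.59 and 0.74 ± 0.41), Csf1r and Cd68 (0.42 ± 0.20 and 0.44 ± 0.23), Ms4a1 and Cd2 (0.61 ± 0.32 and 0.68 ± 0.39), Ank1 and Epor (0.32 ± 0.21 and 0.24 ± 0.22), and Apoa1 and Alb (-0.19 ± 0.14 and -0.14 ± 0.14), and the second ones of the lists of Cftr and Ltf were Krt19 (0.66 ± 0.41) and S100a9 (0.65 ± 0.58). On 430 2.0 Cd68 (1.78 ± 0.22, adjusted p = 0.0388), Col3a1 (2.07 ± 0.20, adjusted p = 0.0263) and Lrat (2.07 ± 0.26, adjusted p = 0.0415) were higher in the double knockout livers and Alas2 (-3.96 ± 0.24, adjusted p = 0.0135) lower, and 0 of 7 hepatocyte markers passed by limma, with 2 lower at an unadjusted p under 0.05. The summed signals there were 121966 in the normal liver against 100804 to 103983 for hepatocyte markers, 16338 against 18799 to 23608 for macrophage, 4290 against 7823 to 9858 for stellate and endothelial, 174.1 against 558.5 to 595.8 for cholangiocyte, 2762 against 380.8 to 393.2 for erythroid, 272.4 against 148.5 to 241.9 for lymphocyte and 885.2 against 436.1 to 606.6 for neutrophil markers.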

How the data were processed

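Liver RNA of 12 mouse samples was measured, 9 on Affymetrix 430A and 3 on 430 2.0. The authors deposited linear intensity signals of each probe set. The submitters' processing notes name GCOS (1.4.0.036) and MAS5. Per the labels' protocols, RNA was isolated with RNeasy from liver kept in RNAlater. Other steps are not given in the labels or files used here.

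On each design 64 control probe sets were left out. Signals were taken to log2(signal + offset), the offset, 9.8 and 3.8, being the 10th percentile of the signals on a design. No filter on low signals was applied, since a filter on 2 arrays would let genes in through the 2 double knockout arrays. All 9 arrays of 430A entered 1 fit in limma 3.58.1 (R 4.3.3; lmFit, eBayes with the intensity trend; 6 residual and 4.28 prior degrees of freedom), and those of 430 2.0 another (1 and 3.62). P-values were adjusted by Benjamini-Hochberg over 22626 and 45037 probe sets. They measure the spread between these arrays, whose number limits the precision. A gene was read by the probe set with the highest mean over the 430A arrays. Background shares are over genes. The fits were also run on simulated data with independent noise. Rises were added there only to probe sets above the median signal, so the run does not cover dim genes. Symbols came from GEO's platform annotation. On 430A 20380 probe sets carried 1 symbol, 691 more than 1 and 1555 no symbol; on 430 2.0 these were 34945, 932 and 9160. No pair of arrays shared over 0.426% identical signals.

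Members and lists were chosen with earlier results of these data known. Values on every array are given for up to 4 members of smallest p per role in Fah p21 off against normal and for all that passed in Fah off; of each other list the 2 of smallest p in Fah off are named, and 2 markers of smallest p per list between the groups off NTBC. Alternatives were no offset or the 25th percentile, a filter, quantile or median scaling, limma without the trend or robust, other readings of a gene, other control groups, the replicate number as a block, and each array left out. Promoters came from RefSeq (GRCm38.p6). Python 3.11.15 and matplotlib 3.10.9 drew the figures.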

Additional observations from a re-analysis of the deposited data

Results flagged for a closer look

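Among the 4 normal livers of 430A, 2 of the 38 members had 1 array far from the other 3 for its range, and both times it was normal 3, the Fah knockout on NTBC. Mcm6 read 19.1 there against 5.9 to 6.5 in the other normal livers. Rrm1 read 246.5 there against 209.9 to 214.4. The gap was 0.939 and 0.868 of the group's range, above Dixon's critical value for 4 arrays; chance alone marks about 1 group in 20.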

How the results depend on the processing

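Counts of members called in Fah off against normal, 10 as reported, were 6 with the mean over the probe sets of a gene, 5 with the replicate block, 2 with the Fah knockout on NTBC as the only control, and 5 to 10 with 1 array left out (5 without Fah off 2, 6 without Fah off 1). In Fah p21 off against normal the count, 23, was 7 with the double knockout on NTBC as the only control, 17 with the replicate block, and 12 to 24 with 1 array left out (12 without Fah p21 off 2). In Fah p21 off against Fah off the 1 call became 0 without an offset, with the 2 groups alone or with the replicate block, 2 with the larger offset, the filter (Mcm5 and Rrm2, not Cdc6), quantile normalization, median scaling or the mean over probe sets, and 1 to 9 with 1 array left out (9 without Fah p21 off 1). On 430 2.0 the 12 calls became 24 with the filter, 19 with median scaling and 0 without the intensity trend; leaving out an array there leaves no residual degree of freedom. The causes were not tested. Read by the probe set brightest on the normal arrays, Mcm3 turned to -0.17 and Mcm7 to -0.67 in Fah off. Probe sets called in all, 5428, 4275, 8 and 1002 in the 4 comparisons in this order, were 2236 and 1417 with the single matched controls, 2390 in the second without Fah p21 off 1 and again without Fah p21 off 2, 151 in the third without Fah p21 off 1 and 2 without Fah p21 off 2, and 3101, 2317 and 0 in the last with the filter, median scaling and no trend. Scaling to a common median moved the median change of all probe sets in Fah p21 off from 0.10 to -0.10, and the members' median from 0.97 to 0.75. Deviations of same-numbered arrays from their group means correlated between -0.209 and 0.0578. With groups of 2 to 4 arrays, and a normal group of mixed genotypes, this cannot decide whether the livers were paired or shared a batch. The block turned the direction of no member that passed.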
